A study of Solanum dulcamara with 18 samples.

Results

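Of the 24158 contigs assembled from leaves of Solanum dulcamara, 41 were lower in flooding than in control plants, and nearly level between drought and control plants, both with and without caterpillars. They were chosen from raw read counts turned into CPM, the counts scaled to a common library size (counts per 1e+06 reads). A contig qualified when its mean over the 18 libraries was at least 2 CPM, its group mean of log2(CPM + 1) was at least 0.8 lower in flooding than in control plants (a 1.74-fold difference) in each insect treatment, and the same mean differed by at most 0.4 (1.32-fold) between drought and control plants in each. Flooding and drought differences of these contigs are therefore descriptions without a test. Responses to herbivory are tested. Differences between water treatments in that response are built from values that the rule used, and nothing is read from their calls.

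Bittersweet nightshade, S. dulcamara, is a wild perennial relative of tomato and potato that grows on wet and on dry ground. Every plant was grown in a greenhouse and kept for 5 days under control watering, drought or flooding. The water treatment then went on for 2 more days, in which plants carried no insects (uninfested) or were fed on for 48 h by Spodoptera exigua caterpillars (infested). The 6 combinations had 3 libraries each, described as biological replicates, and the labels gave no genotype and did not say whether replicates were single plants or pools. The study asks how drought and flooding affect the response of the leaf transcriptome to the herbivore.

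As background, waterlogged soil deprives roots of oxygen, and leaves respond to signals from the roots, including ethylene and abscisic acid, although they remain in air. Drought also closes stomata through abscisic acid, so leaf responses to lack and to excess of water share part of their signalling. Chewing caterpillars trigger jasmonate signalling, which switches on defence genes in the leaf. The deposited tables identify contigs by assembly ID and length, and 0 of the IDs were found in the reference gene table of the species, so no gene name, function, genome position or sequence is given for any contig here, and leaf marker genes could not be checked.

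Libraries held 6717218 to 16056241 reads, and TMM factors (edgeR's correction of library size for a few dominant genes) ran from 0.910 to 1.09. Replicates varied beyond counting error in all 18 within-group pairs (chi-square over its degrees of freedom 7.70 to 45.4). The choice of scaling matters at the size of differences used by the rule. On the CPM scale the median of the 17096 contigs with at least 2 CPM was itself 0.12 higher in flooding than in control plants in each insect treatment, and 0.13 (uninfested) and 0.070 (infested) higher in drought. With TMM-adjusted library sizes these medians lay between −0.0045 and 0.022.

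Most contigs that met the flooding threshold in both insect treatments were more than 0.4 below control in drought in at least 1 of them. Among contigs with at least 2 CPM, 894 met the flooding threshold in uninfested leaves, 855 in infested leaves and 600 in both. Of the 600, drought lay within its bounds in both insect treatments for 41, and 220 were at least 0.8 lower in drought too, again in both. Drought was more than 0.4 below control in at least 1 insect treatment for 527 of the 600 and more than 0.4 above it for 43, with 11 counted in both.

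The flooding difference of the 41 members ran from −2.76 to −0.80 in uninfested leaves, with a median of −1.08 (log2 scale). In infested leaves it ran from −2.29 to −0.81, with a median of −1.01. It was −2 or lower in both insect treatments in 1 member, −1 or lower in both in 16, and between −1 and the threshold in both in 12. Drought differences had medians of −0.10 (uninfested) and −0.17 (infested), and 25 and 35 members lay below 0. In bulk leaf tissue, a lower level cannot be told apart from fewer cells that express the contig.

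**Figure D1:**
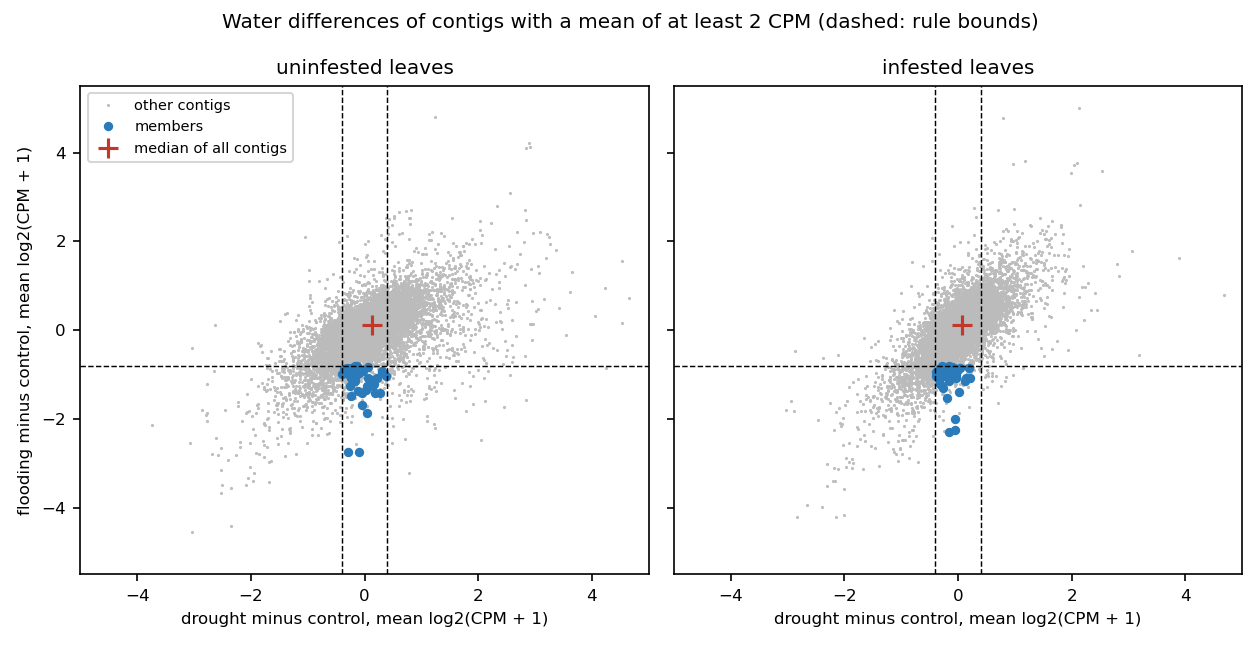
Flooding minus control against drought minus control, each as a difference of group means of log2(CPM + 1), for uninfested leaves (left) and infested leaves (right). The 41 members (blue) lie under the dashed flooding threshold of −0.8 and between the dashed drought bounds of ±0.4, and the red cross marks the median of all contigs, 0.12 above 0 on the flooding axis.

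Set against the median contig rather than against 0, the median member was lower in drought as well, by less than in flooding. Relative to that median their median difference was −1.20 and −1.12 in flooding (uninfested and infested) and −0.23 and −0.24 in drought. With TMM scaling the flooding medians were −1.21 and −1.10 and the drought medians −0.24 and −0.23, with drought below 0 in 33 and 37 members. Single members then reached −0.52 in uninfested and −0.45 in infested drought plants. The rule applied to TMM-scaled values chose 50 contigs, 30 of them members.

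Library by library, flooding levels lay apart from control levels for nearly every member. All 3 flooding libraries were below all 3 control libraries for 40 of 41 members in uninfested leaves and for 39 in infested leaves. This held for 12.6% and 12.9% of contigs with at least 2 CPM. The contrast chose the members, so nothing is read from these shares. The exceptions were comp77_c0_seq1 (730 bases) in both insect treatments and comp30235_c0_seq1 in infested leaves. Flooding was also below all drought libraries for 38 members in uninfested and 35 in infested leaves (12% and 8.97% of contigs). In 15 members the 6 flooding libraries were all below the other 12, whatever the insect treatment, as in 0.526% of contigs, and nothing is read from this share either.

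Drought libraries mostly overlapped those of control plants. They were all below them in 2 members and all above in 1 in uninfested leaves, where 13.2% and 28% of contigs did so. In infested leaves they were all below in 7 members and all above in none of the 41 (10.9% and 18.9% of contigs). The rule bounded the drought difference, so nothing is read from these shares either. The members varied more between replicates than the typical contig, but their median level was also lower (13.1 CPM against 21.1 CPM). They were chosen on differences of group means from these same libraries. Contigs of like level were not compared, so whether the wider spread is a trait of the members was not tested. Within groups, the median SD of log2(CPM + 1) was 0.23 for members and 0.16 for all contigs in uninfested control plants. In uninfested drought plants it was 0.34 against 0.16, and in uninfested flooding plants 0.35 against 0.20. In infested control, drought and flooding plants it was 0.31, 0.26 and 0.31 for members against 0.17, 0.16 and 0.19.

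**Figure D2:**
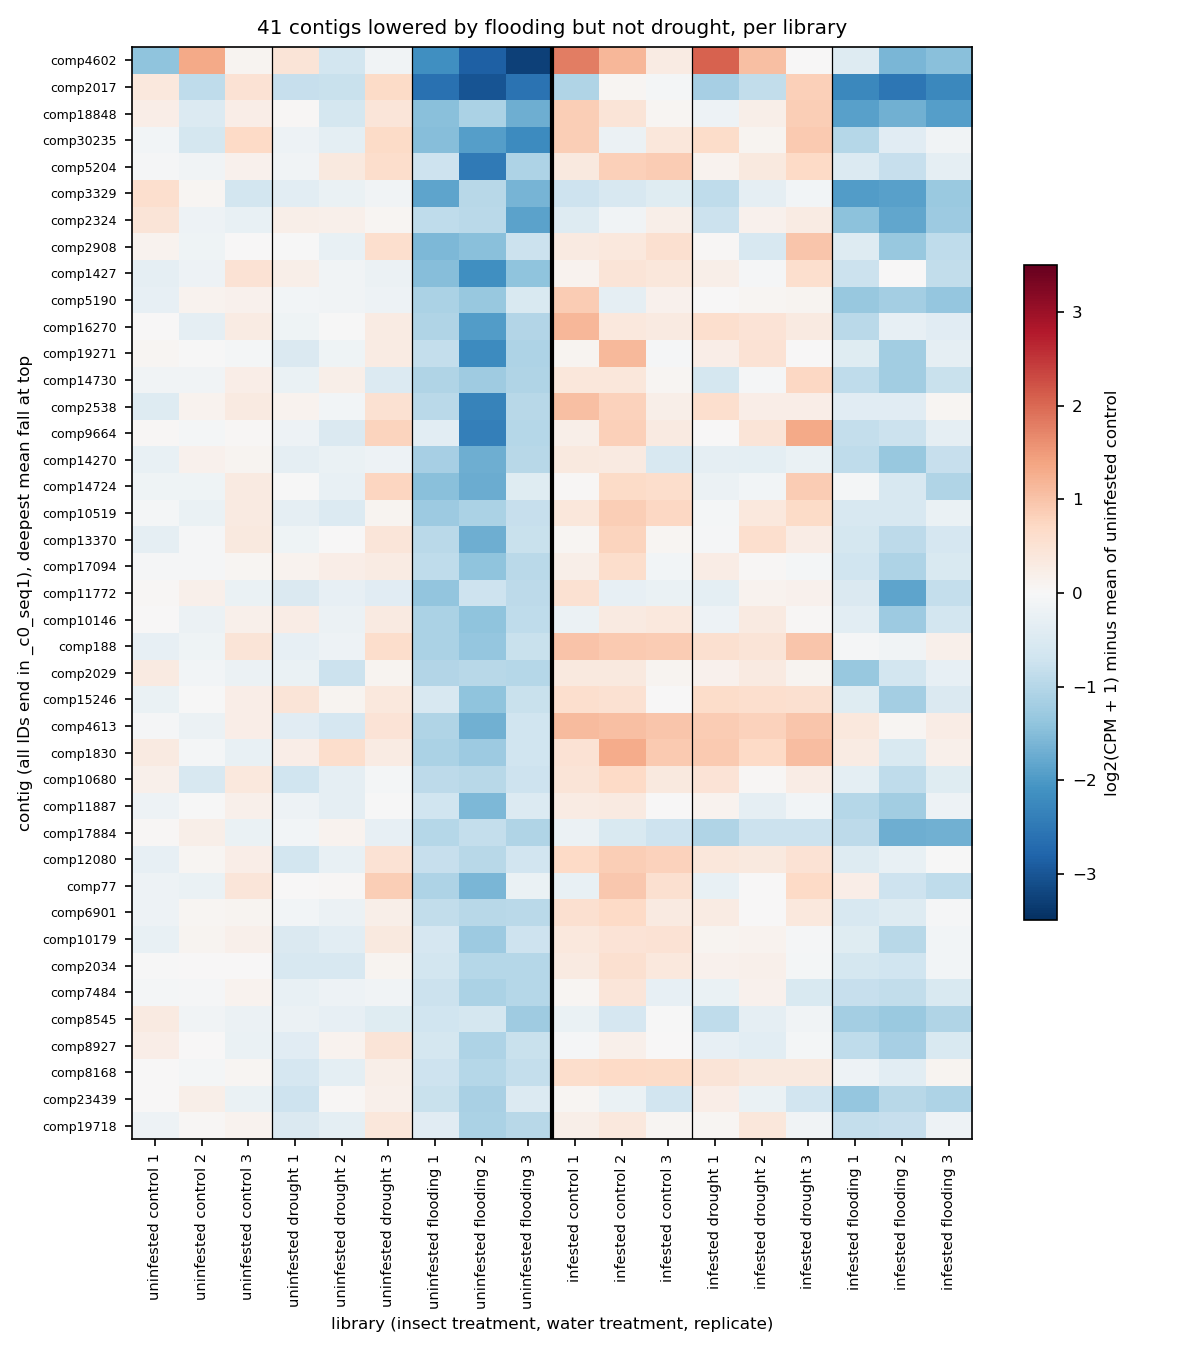
Level of each of the 41 members (rows, ordered by their mean flooding difference) in each of the 18 libraries (columns), as log2(CPM + 1) minus the mean of the 3 uninfested control libraries of that contig. The uninfested flooding columns are blue in every row, while most infested control and drought columns are pale or red.

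Within 3 groups, 1 library lay away from the other replicates across the members. The median member was 0.29 above its uninfested control mean in uninfested drought replicate 3, against −0.18 and −0.23 in the other replicates of that group. Uninfested flooding replicate 2 was the lowest library, with a median of −1.32 against −0.998 and −0.948 in its group. Infested flooding replicate 2 had a median of −0.92 against −0.61 and −0.52 in its group. Without uninfested flooding replicate 2 the uninfested flooding difference of comp5204_c0_seq1, comp9664_c0_seq1 (1415 bases) and comp11887_c0_seq1 (1344 bases) went from −1.42, −1.25 and −0.92 to −0.90, −0.68 and −0.60. In infested leaves the difference of comp19271_c0_seq1 (1902 bases) went from −1.06 to −0.69 without infested control replicate 2, and that of comp11772_c0_seq1 (1046 bases) from −1.08 to −0.69 without infested flooding replicate 2. No other member's flooding difference moved by over 1.5 times when 1 control or flooding library was left out.

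Together the members were a small part of the leaf transcriptome. They took 0.152 ± 0.0230% of reads in uninfested control, 0.144 ± 0.0253% in drought and 0.0559 ± 0.00912% in flooding plants (mean ± SD, n = 3 each). In infested leaves these shares were 0.221 ± 0.0247%, 0.203 ± 0.0261% and 0.0941 ± 0.00845%. Without comp4602_c0_seq1, the member with the most reads, they were 0.123, 0.122 and 0.0525% in uninfested leaves, and 0.170, 0.149 and 0.0836% in infested leaves. In each insect treatment every flooding library lay below every control and drought library, with or without that contig. The members were chosen for low flooding levels in these libraries, so nothing is read from this separation.

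**Figure D3:**
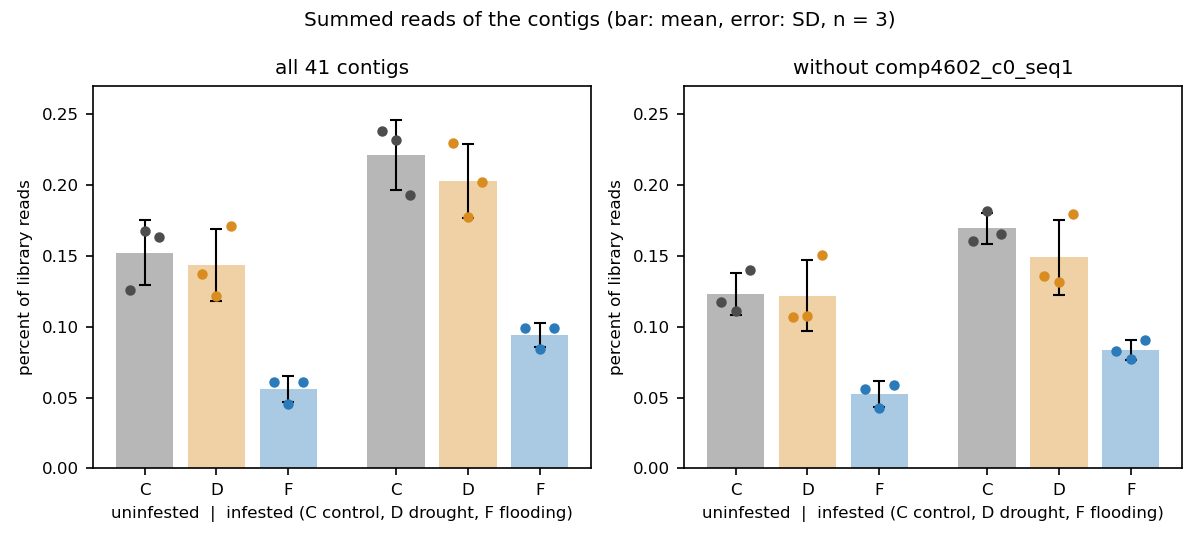
Percent of a library's reads that mapped to the 41 members (left) and to the members other than comp4602_c0_seq1 (right). Points are libraries, bars are means and error bars are SD of 3 libraries, and the flooding bars are the lowest in each insect treatment, at 0.0559% in uninfested and 0.0941% in infested leaves for all members. The members were chosen on this contrast.

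The member with the deepest mean flooding difference also had the highest level per kilobase, and it varied widely between replicates. comp4602_c0_seq1 (626 bases) was at 82.5, 562 and 237 CPM in control, 302, 143 and 206 CPM in drought and 49.4, 29.98 and 22.1 CPM in flooding plants without caterpillars. With caterpillars it was at 776, 503 and 271 CPM in control, 939, 459 and 223 CPM in drought and 161, 73.3 and 80.8 CPM in flooding plants. Flooding libraries were below all others of their insect treatment, although control libraries spanned 82.5 to 562 CPM in uninfested leaves. Its flooding differences were −2.76 and −2.25 in uninfested and infested leaves, and its drought differences −0.10 and −0.05.

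comp2017_c0_seq1 (2206 bases) had the second deepest mean difference and low flooding levels in every library. Uninfested leaves held 72.5, 29.8 and 80.6 CPM in control, 31.8, 32.4 and 90.3 CPM in drought and 8.36, 6.0 and 8.47 CPM in flooding plants. Infested leaves held 26.7, 58.6 and 53.4 CPM in control, 24.2, 30.1 and 101 CPM in drought and 10.9, 8.92 and 11.0 CPM in flooding plants. The 6 flooding libraries reached at most 11.0 CPM and the other 12 at least 24.2 CPM, while drought replicate 3 was higher than any control library in both insect treatments. Flooding differences were −2.74 (uninfested) and −1.99 (infested).

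Among the 8 members with the deepest differences, comp18848_c0_seq1 (889 bases) and comp30235_c0_seq1 (607 bases) were read at only a few CPM. comp18848_c0_seq1 was at 5.36, 2.86 and 5.39 CPM in control, 4.51, 2.55 and 6.26 CPM in drought and 0.968, 1.499 and 0.658 CPM in flooding plants in uninfested leaves. In infested leaves it was at 8.77, 6.32 and 4.62 CPM in control, 3.77, 5.19 and 8.86 CPM in drought and 0.447, 0.669 and 0.427 CPM in flooding plants. Its flooding difference was thus deeper with caterpillars (−2.29) than without (−1.42). The flooding levels rest on 11, 19 and 8 reads in uninfested and 3, 6 and 6 reads in infested libraries.

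For comp30235_c0_seq1 the levels were 3.95, 2.49 and 7.66 CPM in control, 3.67, 3.19 and 7.45 CPM in drought and 0.880, 0.394 and 0.165 CPM in flooding plants in uninfested leaves. They were 8.65, 3.57 and 6.0 CPM in control, 7.25, 4.63 and 9.06 CPM in drought and 1.64, 3.01 and 3.84 CPM in flooding plants in infested leaves. Here the flooding difference was deeper without caterpillars (−1.87) than with them (−0.86), and infested flooding and control libraries overlapped. Its uninfested flooding libraries held 10, 5 and 2 reads. At these low levels the pseudocount of 1 CPM makes the log2 differences smaller than the ratios of the levels.

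The other 4 of the 8 lay between −1.16 and −1.48 in each insect treatment. comp5204_c0_seq1 (1349 bases) was at 41.2, 39.2 and 47.2 CPM in control, 38.6, 53.5 and 65.5 CPM in drought and 25.4, 6.78 and 19.6 CPM in flooding plants without caterpillars. With caterpillars it was at 54.5, 77.0 and 79.1 CPM in control, 46.0, 53.8 and 69.2 CPM in drought and 30.2, 23.9 and 34.0 CPM in flooding plants. Its 6 flooding libraries lay below the other 12, and its uninfested flooding level was lowest in replicate 2. comp3329_c0_seq1 (1000 bases) had a mean of 15.3 CPM and comp2324_c0_seq1 (1419 bases) one of 17.5 CPM over the 18 libraries, and both had all flooding libraries below all others. In uninfested leaves comp3329_c0_seq1 was at 35.6, 24.2 and 14.47 CPM in control, 17.7, 19.6 and 21.3 CPM in drought and 5.81, 11.3 and 6.91 CPM in flooding plants, and in infested leaves at 13.7, 15.5 and 17.2 CPM in control, 12.1, 18.4 and 21.5 CPM in drought and 5.21, 5.47 and 8.89 CPM in flooding plants. For comp2324_c0_seq1 the uninfested levels were 30.1, 19.3 and 18.2 CPM in control, 25.6, 24.8 and 23.1 CPM in drought and 11.4, 11.0 and 5.27 CPM in flooding plants, and the infested ones 15.9, 19.99 and 25.6 CPM in control, 12.6, 24.4 and 26.9 CPM in drought and 7.44, 5.47 and 8.46 CPM in flooding plants. Neither contig was called for averaged herbivory. comp2908_c0_seq1 (2221 bases, mean 85.6 CPM) had flooding differences of −1.26 and −1.31, with infested flooding and drought libraries overlapping (up to 65.9 CPM in flooding and down to 61.8 CPM in drought plants).

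**Figure D4:**
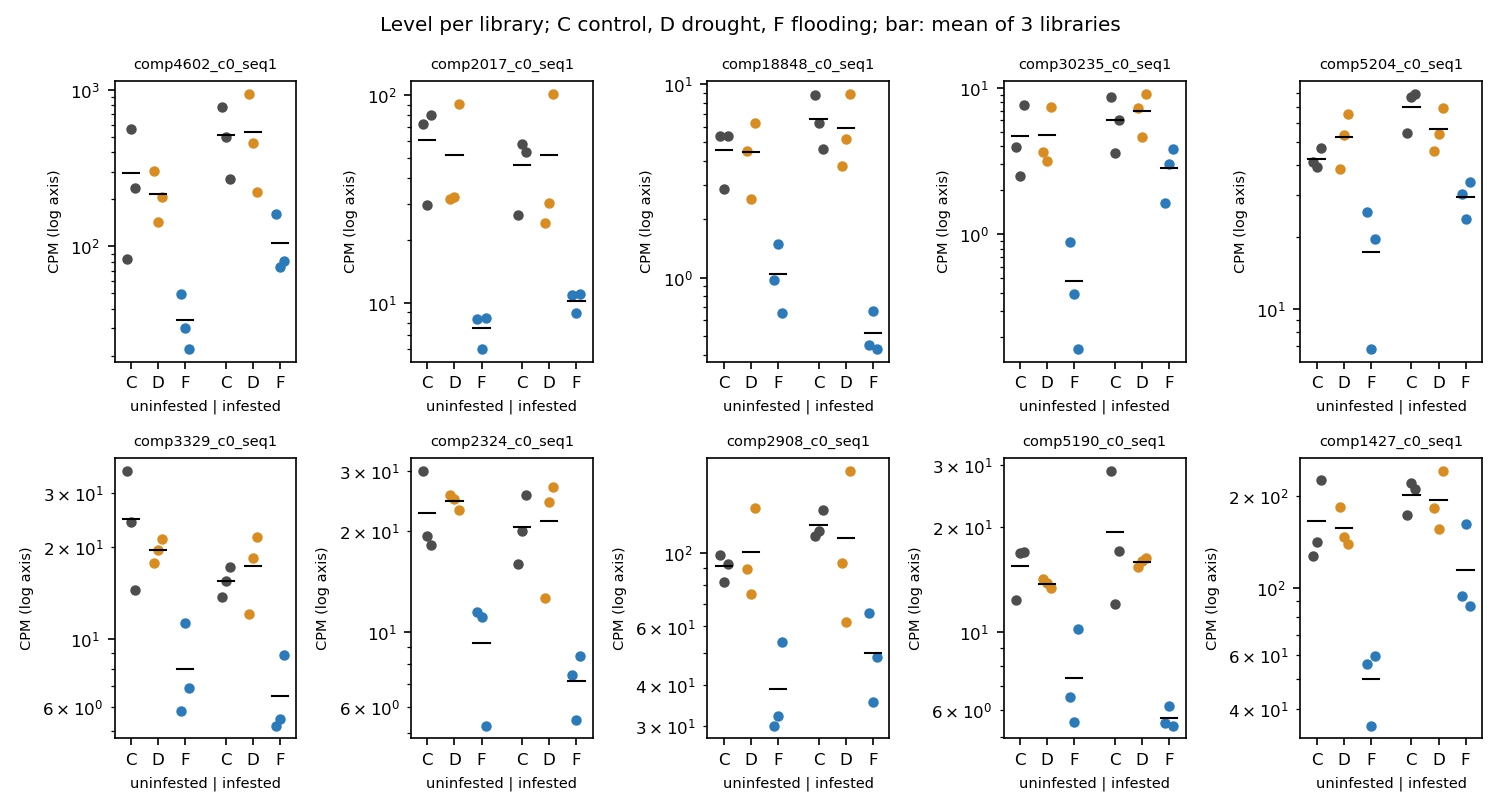
CPM on a log axis in each library for the 8 members with the deepest mean flooding difference and for comp5190_c0_seq1 and comp1427_c0_seq1, whose flooding difference was among the 2 that deepened or lessened the most with caterpillars. Points are libraries and bars are means of 3, and flooding points (blue) lie below control points in both insect treatments except for infested comp30235_c0_seq1.

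Besides comp4602_c0_seq1, the members with the most reads by CPM, which is not adjusted for length, were comp188_c0_seq1 (1139 bases), comp1427_c0_seq1 (598 bases), comp2034_c0_seq1 (2211 bases), comp2908_c0_seq1 and comp1830_c0_seq1 (1704 bases). Levels of different contigs compare only per length. Per kilobase of contig, comp4602_c0_seq1 had a mean level of 454 CPM, comp1427_c0_seq1 245 CPM, comp188_c0_seq1 205 CPM and comp2034_c0_seq1 40.1 CPM, and comp1830_c0_seq1, at 31.3 CPM per kilobase, ranked 9 of 41. comp188_c0_seq1 was at 162, 176 and 268 CPM in control, 162, 176 and 300.4 CPM in drought and 91.0, 76.0 and 115 CPM in flooding plants in uninfested leaves. Its flooding differences were −1.08 and −0.93. comp2034_c0_seq1 was at 95.7, 97.97 and 97.4 CPM in uninfested control and 62.2, 47.9 and 47.6 CPM in uninfested flooding plants, a difference of −0.88.

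Members spanned 3.51 to 284 CPM in mean level, with a median of 13.1 CPM against 21.1 CPM for all contigs with at least 2 CPM. Of the 41, 6 had a mean of at least 50 CPM and 17 one under 10 CPM. Contig length, which the rule did not use, ran from 598 to 6808 bases with a median of 1415 bases, and the median of the 17096 contigs was 1342 bases. No 2 members came from the same assembly component, and none of the 41 shared a component with another contig. The longest, comp10146_c0_seq1 (6808 bases), was the single member left out of the authors' normalized table.

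The threshold cut through a continuous range. Just inside it, comp23439_c0_seq1 (1492 bases) had flooding differences of −0.80 (uninfested) and −0.86 (infested), and comp7484_c0_seq1 (989 bases) −0.95 and −0.81. Just outside, comp11103_c0_seq1 (4813 bases) had −0.79 and −0.80 and comp2135_c0_seq1 (1520 bases) −0.92 and −0.79. In at least 1 insect treatment, 15 members lay within 0.1 of the flooding threshold and 16 within 0.1 of a drought bound.

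In libraries that took no part in the choice, most chosen contigs were again lower in flooding, though often by less than the threshold, and the bounds on drought were often missed. The rule was applied to the 12 libraries that carry 2 of the 3 replicate numbers, and the chosen contigs were read in the 6 libraries with the remaining number. Without number 1, 61 contigs were chosen, 24 of them members. Their median flooding difference in the held-out libraries was −1.01 uninfested and −0.88 infested, and 58 and 55 of them were below 0, against 34.7% and 42.5% of all contigs. The threshold of −0.8 was reached by 39 and 36 of the 61, against 5.60% and 6.24% of all. Without number 2, 36 contigs were chosen (14 members), with held-out medians of −0.99 and −1.34 and 34 and 36 of them below 0 (42.5% and 39.2% of all contigs). The threshold was reached by 23 and 28 of the 36, against 6.91% and 8.91% of all. Without number 3, 34 contigs were chosen (17 members), with held-out medians of −1.02 and −0.51 and 34 and 30 of them below 0 (38.7% and 37.0% of all contigs). Here the threshold was reached by 26 of the 34 in uninfested and by 7 in infested leaves, against 6.58% and 4.65% of all.

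Drought differences of the same contigs lay within ±0.4 in the held-out libraries for 30 of 61, 22 of 36 and 23 of 34 in uninfested leaves. In infested leaves they did so for 28 of 61, 12 of 36 and 21 of 34. Among all contigs this held for 55.8, 63.9 and 73.4% in uninfested and for 69.7, 74.8 and 64.6% in infested leaves. In every comparison the chosen contigs met the drought bounds less often than all contigs did. Held-out drought medians were −0.21, −0.12 and 0.17 (uninfested) and −0.31, −0.41 and 0.0068 (infested). The whole rule was met in the held-out libraries by 2, 1 and 3 of the chosen contigs, each value there resting on 1 library per group. The share of all contigs that met it there was not computed, so nothing is read from these counts.

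Caterpillar feeding, a contrast the rule did not use, raised many of the members and lowered 1. Averaged over the 3 water treatments, 18 of the 41 rose and 1 fell at an edgeR adjusted p under 0.05, adjusted over all 20170 contigs tested, and 22 had an unadjusted p under 0.05 (40.2% of all contigs). Of all contigs tested, 16% rose and 13.4% fell, which compares with 43.9% and 2.44% of the members. The median log2 fold change of infested over uninfested was 0.37 for members and −0.013 for all contigs, and 35 of the 41 were above 0, against 48.1% of all. Each of the 18 had a log2 fold change above 0 in every water treatment, and 3 rose at least 2-fold on average. The 18 were called on the mean of these same fold changes, so nothing is read from their shared direction. The test uses the same 18 libraries as the rule, in a contrast between insect treatments that the rule did not set.

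**Figure D5:**
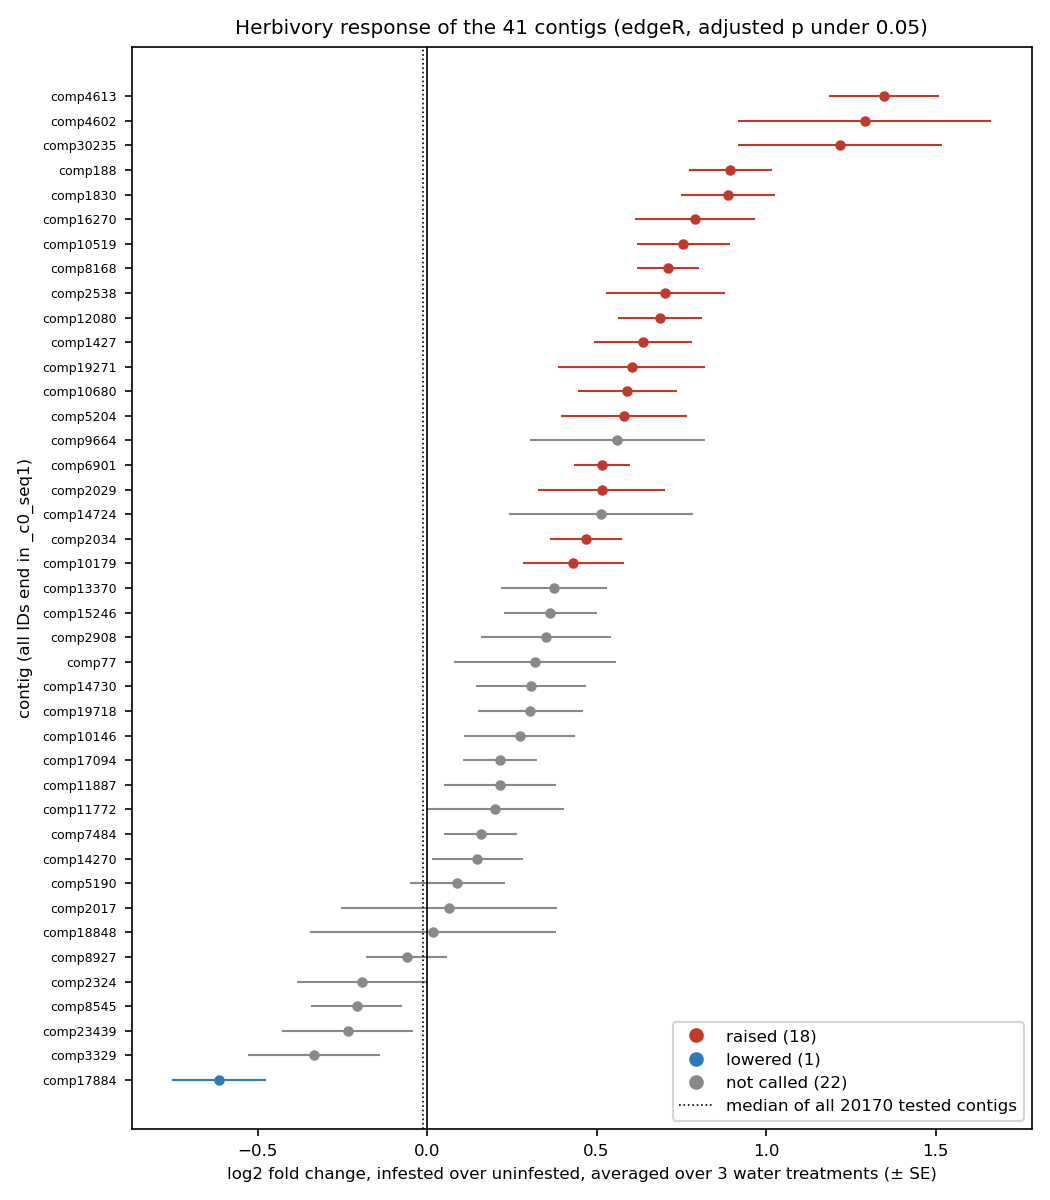
Log2 fold change of infested over uninfested leaves, averaged over the 3 water treatments, for the 41 members with its SE. Red contigs rose (18), the blue one fell (1) and grey ones did not pass the test (22), and the dotted line marks the median of all contigs, −0.013.

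The largest rise was that of comp4613_c0_seq1 (631 bases), a member with flooding differences of −1.14 and −0.82. It was at 6.0, 5.29 and 7.53 CPM in control, 4.51, 3.83 and 8.99 CPM in drought and 2.47, 1.26 and 3.46 CPM in flooding plants in uninfested leaves. In infested leaves it was at 14.54, 14.0 and 13.3 CPM in control, 12.4, 11.51 and 13.1 CPM in drought and 8.34, 6.58 and 7.61 CPM in flooding plants. Infested libraries were above uninfested ones under each water treatment, and the averaged log2 fold change was 1.35 ± 0.16 (± SE, adjusted p = 1.33e-05 by edgeR). It was the single member whose mean log2 level in infested flooding plants exceeded that of uninfested control plants.

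comp4602_c0_seq1 and comp30235_c0_seq1, whose levels are given above, had the next largest rises. comp4602_c0_seq1 rose by 1.29 ± 0.37 on the log2 scale (edgeR adjusted p = 0.0179), with control and drought libraries of the 2 insect treatments overlapping. comp30235_c0_seq1 rose by 1.22 ± 0.30 on the log2 scale (edgeR adjusted p = 0.00638). Most of this came from flooding plants (2.64 ± 0.62, edgeR adjusted p = 0.00957), where its uninfested libraries held 10, 5 and 2 reads. That call was lost without uninfested flooding replicate 2 (edgeR adjusted p = 0.0501). In control (0.37 ± 0.46) and drought plants (0.64 ± 0.46) the contig was not called (edgeR adjusted p = 0.651 and 0.592). No difference between water treatments in its response was called. comp188_c0_seq1 stood at 395, 370.2 and 366 CPM in control, 292, 269.7 and 385 CPM in drought and 192, 181 and 221 CPM in flooding plants in infested leaves, above each uninfested group of the same water treatment except in drought plants. Its averaged log2 fold change was 0.89 ± 0.12 (edgeR adjusted p = 4.59e-05).

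The single member that fell was comp17884_c0_seq1 (722 bases). It was at 12.8, 14.4 and 10.4 CPM in control, 11.6, 13.5 and 9.99 CPM in drought and 5.72, 6.55 and 5.43 CPM in flooding plants in uninfested leaves. Infested leaves held 10.6, 8.26 and 7.08 CPM in control, 5.46, 7.0 and 6.91 CPM in drought and 6.10, 3.12 and 3.20 CPM in flooding plants. The averaged log2 fold change was −0.61 ± 0.14 (edgeR adjusted p = 0.00313), so this contig was lower both in flooded and in infested leaves. Members with deep flooding differences but no call for herbivory included comp2017_c0_seq1 (0.06 ± 0.32, edgeR adjusted p = 0.905) and comp18848_c0_seq1 (0.02 ± 0.36, edgeR adjusted p = 0.98).

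Of the 18 rises, 14 held without each of the 18 libraries and under the 8 other fits tried, as did the fall. comp5204_c0_seq1 (0.58 ± 0.19, edgeR adjusted p = 0.0284) was not called without 6 of the libraries, with edgeR adjusted p up to 0.0594. The libraries were uninfested control replicate 2, uninfested drought replicate 1, infested control replicates 2 and 3, infested drought replicate 3 and infested flooding replicate 3. Another 3 members near the threshold, picked out after their values were seen, lost the call without 12, 13 and 15 of the libraries and under 2, 6 and 6 of the other fits, with edgeR adjusted p without a library up to 0.105 (comp10179_c0_seq1), 0.108 (comp19271_c0_seq1) and 0.154 (comp2029_c0_seq1).

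Within single water treatments fewer members passed the test. In control plants 6 rose and none of the 41 fell (edgeR), against 6.61% and 3.92% of all contigs, and 13 had an unadjusted p under 0.05, against 26.6%. The 6 were 3, 0 and 3 without uninfested control replicate 1, uninfested control replicate 2 and infested control replicate 2. In drought plants 2 rose and none of the 41 fell (edgeR), against 2.87% and 0.342%, and 11 had an unadjusted p under 0.05, against 14.6%. These were 0 when replicate 1 or 2 of uninfested or of infested drought plants was left out, 1 without infested drought replicate 3, 5 without uninfested drought replicate 3, and 0 with only the 6 samples compared. In flooding plants 11 rose and none of the 41 fell (edgeR), against 9.58% and 5.79%, and 15 had an unadjusted p under 0.05, against 29.7%. They were 6 without uninfested flooding replicate 2, 7 without infested flooding replicate 3 and 6 with only the 6 samples compared. Shares of all contigs called in these reduced fits are not given here, so these changes are not read as a trait of the members. DESeq2 called 7, 3 and 11 members in control, drought and flooding plants, 1 of those in drought plants as a fall, against 13.3%, 4.9% and 18.4% of all contigs. Without infested flooding replicate 1 edgeR called 1 fall in drought and 1 in flooding plants. All 3 infested libraries were above all 3 uninfested ones for 13 members in control, 8 in drought and 13 in flooding plants, against 15.7%, 8.65% and 13.2% of contigs with at least 2 CPM. They were all below for 0, 1 and 0 members, against 18.7%, 16.3% and 17.9%.

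All 6 members that rose in control plants also rose in flooding plants. The shares of all contigs called in both, or in all 3 water treatments, were not computed, so nothing is read from these overlaps. The flooding call of comp12080_c0_seq1 (3143 bases), among these 6, lay near the threshold (edgeR adjusted p = 0.0464). It was lost without many of the single libraries, with edgeR adjusted p up to 0.162. comp4613_c0_seq1 and comp8168_c0_seq1 (2877 bases, named for this after its values were seen) rose in all 3 water treatments. comp8168_c0_seq1 was at 46.4, 44.0 and 48.9 CPM in control, 30.7, 36.2 and 53.7 CPM in drought and 27.8, 22.9 and 25.3 CPM in flooding plants in uninfested leaves. In infested leaves it was at 71.6, 76.4 and 74.2 CPM in control, 64.1, 58.8 and 59.6 CPM in drought and 40.6, 35.4 and 49.3 CPM in flooding plants. Its log2 fold changes were 0.68 ± 0.16 in control, 0.68 ± 0.16 in drought and 0.77 ± 0.16 in flooding plants (edgeR adjusted p = 0.0105, 0.0228 and 0.00402). The drought calls of both contigs were lost without single drought libraries and with only the samples compared. Without 1 library their edgeR adjusted p reached 0.135 (comp4613_c0_seq1) and 0.129 (comp8168_c0_seq1). The mean log2 level of comp8168_c0_seq1 was lowest in flooding plants in both insect treatments, which the rule requires of every member.

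The difference in herbivory response between flooding and control plants is also the infested minus the uninfested flooding difference, and the same holds for drought. The rule bounded drought differences on both sides, which also bounds the drought minus control difference in response on its scale. It set only an upper limit on each flooding difference, which does not bound how far the 2 insect treatments differ. What follows is built from values that the rule used and is a description. The flooding minus control, drought minus control and flooding minus drought differences in response each called 0 of 41 members with edgeR and 0 with DESeq2. Of all contigs, edgeR called 0%, 0% and 0.0198% (each of these with the higher response under flooding). DESeq2 called 0.0347%, 0.144% and 0.724% of all contigs. There were 3, 0 and 4 members with an edgeR unadjusted p under 0.05, against 3.74%, 6.45% and 9.7% of all contigs. Fitted drought minus control differences in response ran from −0.58 to 0.59 and flooding minus control ones from −1.54 to 2.27, with median SE of 0.38 and 0.40 (log2 scale).

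The flooding difference was shallower in infested than in uninfested leaves by the most in comp30235_c0_seq1 and comp1427_c0_seq1, and deeper by the most in comp18848_c0_seq1 and comp5190_c0_seq1 (1073 bases). These contigs were picked as the extremes of this very difference. Nothing is therefore read from its size or from their responses in flooding plants. None of them was called for the flooding minus control difference in response (edgeR adjusted p = 0.9999 for each). comp1427_c0_seq1 was at 55.9, 35.2 and 59.6 CPM in uninfested and 93.6, 162 and 86.7 CPM in infested flooding plants, and rose there by 1.23 ± 0.26 on the log2 scale (edgeR adjusted p = 0.00455). Its uninfested control libraries held 127, 142 and 226 CPM and its infested ones 173, 220.0 and 211 CPM. The difference in response between flooding and control plants was 0.92 ± 0.36. For comp30235_c0_seq1 it was 2.27 ± 0.78 and for comp18848_c0_seq1 −1.54 ± 0.68 (± SE). comp5190_c0_seq1 was at 6.52, 5.52 and 10.2 CPM in uninfested and 5.51, 6.14 and 5.40 CPM in infested flooding plants, with a difference in response of −0.66 ± 0.35.

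Members that rose with averaged herbivory (18) and those that did not (23) are set side by side as a description. Their flooding differences had medians of −1.08 and −1.08 in uninfested and −0.93 and −1.01 in infested leaves. Mean levels over all libraries, infested ones included, had medians of 27.1 CPM and 10.8 CPM. Whether level bears on the calls was not tested.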

How the data were processed

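Leaf RNA was sequenced from 18 samples in 6 groups of 3. Per the submitters' processing notes, Bowtie 0.12.7 and DESeq were used, and the assembler, the counting and the strand setting are not given in the sources used here. The deposited raw table holds the authors' read counts per contig for 24158 contigs (501 to 15047 bases), of which 546 are 0 in all libraries. The second deposited table, a normalized signal for 22410 contigs, is the raw count scaled by contig length and by 1 factor for each library (largest relative departure 1.75e-09).

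The members, the contigs set beside them and the tests were chosen with earlier results of these data known. The rule used CPM from column totals and a pseudocount of 1 on the log2 scale. Herbivory was tested on the deposited counts with edgeR 4.0.16 (R 4.3.3), using filterByExpr with a minimum count of 10 and a minimum total of 15, TMM factors, 1 mean per group over all 18 libraries and the robust quasi-likelihood F-test (12 residual degrees of freedom, two-sided). The contigs kept held a median of 99.923% of reads and all 41 members, with a common biological variation of 18.65% between replicates. P-values were adjusted by Benjamini-Hochberg over all 20170 contigs tested, and SE was taken from the log2 fold change and F. They measure the spread between libraries that the series calls biological replicates. DESeq2 1.42.0 and limma 3.58.1 were alternatives, and the test was checked on simulated data.

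Contigs were named by rule. The rule took the 8 members with the lowest mean flooding difference, the 6 with the highest mean CPM, the 4 largest rises and falls among herbivory calls, the 2 at each end of the difference between insect treatments, and the 2 on each side of the flooding threshold. Any other named contig was picked after its values were seen.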

Additional observations from a re-analysis of the deposited data

How the results depend on the processing

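The number of contigs meeting the rule was 71 when the authors' normalized table took the place of CPM, 28 of them members. Those values are also scaled by contig length, so the pseudocount of 1 acts on other units than CPM and more than library scaling changed. With TMM scaling the number was 50, 30 of them members. DESeq2 size factors gave 52 contigs (31 members), a pseudocount of 0.5 gave 53 (40) and a pseudocount of 2 gave 37 (30). Leaving out 1 library gave 32 to 49 contigs, with 28 to 41 of the members. Rises with herbivory averaged over water treatments numbered 15 to 19 under the 8 other fits and 14 to 20 without 1 library, and the fall was called in each of them. Shares of all contigs called for averaged herbivory in these fits are not given here, so nothing about the members is read from these ranges. The median member's averaged log2 fold change stayed between 0.32 and 0.44.

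Counts in single water treatments moved more. Rises in control plants were 6 to 9 under other fits and 0 to 7 without 1 library. In drought plants they were 4 with the replicate block, 0 with only the samples compared and 0 to 5 without 1 library, while falls there were 1 with DESeq2 and 0 to 1 without 1 library. In flooding plants rises were 6 with only the samples compared and 6 to 12 without 1 library, and falls were 0 to 1 without 1 library. The causes were not tested. Apart from DESeq2, shares of all contigs called in these fits are not given here. Nothing about the members is therefore read from how far the counts moved. Differences between water treatments in the herbivory response, which are built from values that the rule used, gave 0 calls among the members under each of these fits. No named contig called for averaged herbivory changed direction.

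Replicate numbers did not pair the samples. Correlations of same-numbered libraries' deviations from their group means ran from −0.42 to 0.49 over 45 pairs, 10 of them over 0.1, and 5 of 18 libraries correlated best with their own number. With the number as a replicate block, 17 members rose and 1 fell on average.

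With 3 libraries a group, and as few as 2 reads for a member in a library, small changes of rare contigs were beyond reach.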

Other observations

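Contigs with other water patterns, found with the same thresholds, are set beside the members for herbivory averaged over the water treatments. Among the 220 contigs lowered by flooding and by drought, 16.8% rose and 14.1% fell with caterpillars (edgeR adjusted p under 0.05), with a median log2 fold change of −0.031. Of the 30 contigs raised by flooding but not by drought, 0 rose and 14 fell, with a median of −0.43. Of the 9 contigs lowered by drought but not by flooding, 0 rose and 4 fell, with a median of −0.41. Among the 17094 contigs tested with a mean of at least 2 CPM, 17.3% rose and 14.8% fell. These sets share all 18 libraries with each other and with the 41 members, and the differences between sets were not tested.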
